A study of Mus musculus with 12 samples.

Results

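FGF signaling and its feedback inhibitors were followed in RNA-seq counts of mouse mesangial cells (MMC). The 10 genes Fgf2, Fgf7, Fgfr1, Fgfr2, Spry1, Spry2, Spry4, Dusp4, Dusp5 and Dusp6 were taken by symbol from the 25230 genes counted, and all 10 were found in every library. MMC are the contractile cells that hold the capillary loops of the glomerulus. They were grown from glomeruli of wild-type mice (WT) and of mice of the lncMGC-KO5 line (KO), made by injecting Cas9 and a pair of guides around the transcription start site of lncMGC, the host transcript of the miR-379 cluster, into C57BL/6J embryos. Founders were crossed to C57BL/6 mice and heterozygotes to each other, glomeruli were pooled, and primary cells of a few passages were used, grown in medium with fetal bovine serum. Each genotype was kept serum-depleted (SD) or given TGF-β at 10 ng/ml, with 24 h as the time for all libraries. There were 3 libraries in each of the 4 groups (KO-SD, KO-TGF, WT-SD and WT-TGF). All KO libraries are of 1 edited line, the number and age of the mice are not given in the sources used here, and p-values measure the spread between libraries, which may be technical.

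Fibroblast growth factors bind receptor tyrosine kinases of the FGFR family together with heparan sulfate, and the active receptor switches on RAS, RAF, MEK and the kinases ERK1 and ERK2. ERK activity induces its own brakes. Sprouty proteins act upstream, between receptor and RAF, and dual-specificity phosphatases (DUSP) remove phosphate from the ERK kinases themselves. In mesangial cells FGF2 is known as a growth factor, and transcripts of Sprouty and DUSP genes are widely read as a trace of ERK activity. These counts measured RNA only, not ERK phosphorylation.

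The libraries held between 19898050 and 22827706 counts on genes, and 11528 genes with RPKM (counts scaled to exon length and library size) above 1 in at least 1 library were tested. CPM below are counts scaled to the library size after TMM normalization. A gene was called at an FDR below 5% by the quasi-likelihood test of edgeR, with Benjamini-Hochberg adjustment over all genes tested, in 1 fit of the 12 libraries, and every adjusted p below comes from that fit. Replicate libraries were close (biological coefficient of variation 0.0268), and small differences were called. No row of the counts is named lncMGC. Rian, a neighbouring transcript of the same locus, had 42.3 CPM in WT-SD, 76.2 in WT-TGF, 69.9 in KO-SD and 99.3 in KO-TGF. Mirg, which overlaps part of lncMGC, had 2.33 CPM in WT-SD, 3.59 in WT-TGF, 3.67 in KO-SD and 4.27 in KO-TGF. These counts thus do not check the genotype, and directions for KO are those of the libraries as labelled.

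Promoter windows of 7 of the 10 genes were taken from the RefSeq table of promoters (GRCm38.p6). Those of Fgfr1, Spry4 and Dusp4 were not searched, so nothing is said here of their motifs. The 250 bases before the gene start are shown for the 4 genes whose TGF-β response differed between the genotypes, Fgf7, Spry1, Spry2 and Dusp6, and for Dusp5, the one of the 7 with a match to a searched motif. Capitals mark CArG boxes, the serum response element core. The windows are chr2:126034408-126034657 on the plus strand for Fgf7, chr3:37639697-37639946 on the plus strand for Spry1, chr14:105896820-105897069 on the minus strand for Spry2, chr19:53528895-53529144 on the plus strand for Dusp5 and chr10:99262981-99263230 on the plus strand for Dusp6.
Fgf7: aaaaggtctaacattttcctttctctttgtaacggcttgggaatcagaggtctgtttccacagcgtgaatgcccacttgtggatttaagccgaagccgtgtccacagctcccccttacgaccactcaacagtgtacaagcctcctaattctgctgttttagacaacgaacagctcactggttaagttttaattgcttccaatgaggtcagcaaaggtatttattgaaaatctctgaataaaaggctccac
Spry1: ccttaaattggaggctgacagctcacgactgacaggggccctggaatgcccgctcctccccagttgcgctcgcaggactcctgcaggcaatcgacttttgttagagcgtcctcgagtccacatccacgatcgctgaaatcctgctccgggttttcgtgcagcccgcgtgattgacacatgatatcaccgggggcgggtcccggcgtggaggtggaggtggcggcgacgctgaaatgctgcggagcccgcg
Spry2: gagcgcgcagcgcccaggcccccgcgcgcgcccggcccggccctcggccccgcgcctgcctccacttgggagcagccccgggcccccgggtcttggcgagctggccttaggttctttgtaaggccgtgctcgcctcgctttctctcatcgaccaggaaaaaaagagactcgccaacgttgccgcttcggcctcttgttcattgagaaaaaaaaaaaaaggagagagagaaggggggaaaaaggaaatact
Dusp5: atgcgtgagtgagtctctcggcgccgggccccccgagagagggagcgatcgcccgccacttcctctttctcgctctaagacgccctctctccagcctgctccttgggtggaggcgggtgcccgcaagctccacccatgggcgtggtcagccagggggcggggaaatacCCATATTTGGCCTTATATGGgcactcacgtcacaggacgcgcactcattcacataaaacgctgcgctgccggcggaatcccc
Dusp6: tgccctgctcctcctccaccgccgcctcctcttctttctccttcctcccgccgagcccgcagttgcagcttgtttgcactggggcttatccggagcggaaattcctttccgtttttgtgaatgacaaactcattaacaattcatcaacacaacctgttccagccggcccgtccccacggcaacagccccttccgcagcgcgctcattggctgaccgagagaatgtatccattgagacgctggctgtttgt
The Dusp5 window held 2 CArG boxes side by side, starting at -82 and -72 from the gene start. A CArG box was found in 1.47% of 32817 promoters of the table searched over the same length and on both strands, and 2 or more in 0.0183%. The other motifs searched were ETS (CCGGAAG, in 6.90% of the promoters), AP-1 (TGANTCA, 6.75%), CRE (TGACGTCA, 1.55%), the SMAD-binding box (CAGACA, 17.1%), EGR (GCGTGGGCG, 0.536%) and the TATA box (TATAAA, 12.4%). None of these letters, and no CArG box, was found in the windows of Fgf2, Fgf7, Fgfr2, Spry1, Spry2 and Dusp6, and the Dusp5 window held the CArG boxes alone. The Fgf2 window, chr3:37348403-37348652, ran past the gene start used here, 37348477. It thus lay partly inside the gene, and the full 250 bases before that start were not searched. A match is a description of the letters and not of a factor bound there.

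TGF-β changed all 10 genes in the same direction in both genotypes. In WT, 6 rose (Fgf2, Fgfr1, Spry4, Dusp4, Dusp5 and Dusp6) and 4 fell (Fgf7, Fgfr2, Spry1 and Spry2), where 36.0% of all genes tested rose and 36.4% fell. In KO the same 6 rose and the same 4 fell, against 34.9% and 39.1% of all genes tested. With scaling by library size alone the rise of Spry4 in KO was not called. Of all genes tested, 62.0% were called in the same direction in both genotypes. The 10 genes were chosen with earlier results of these data known, so these shares are a description and not a test. The TGF-β and SD libraries of a genotype did not overlap for any of the 10 genes, where 75.1% of all genes tested did not overlap in WT and 74.3% in KO. The largest rises were those of Dusp4, Fgf2, Dusp5 and Dusp6. Of the ligands and of the receptors one rose and the other fell, Spry4 rose while Spry1 and Spry2 fell, and all 3 phosphatases rose.

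**Figure D1:**
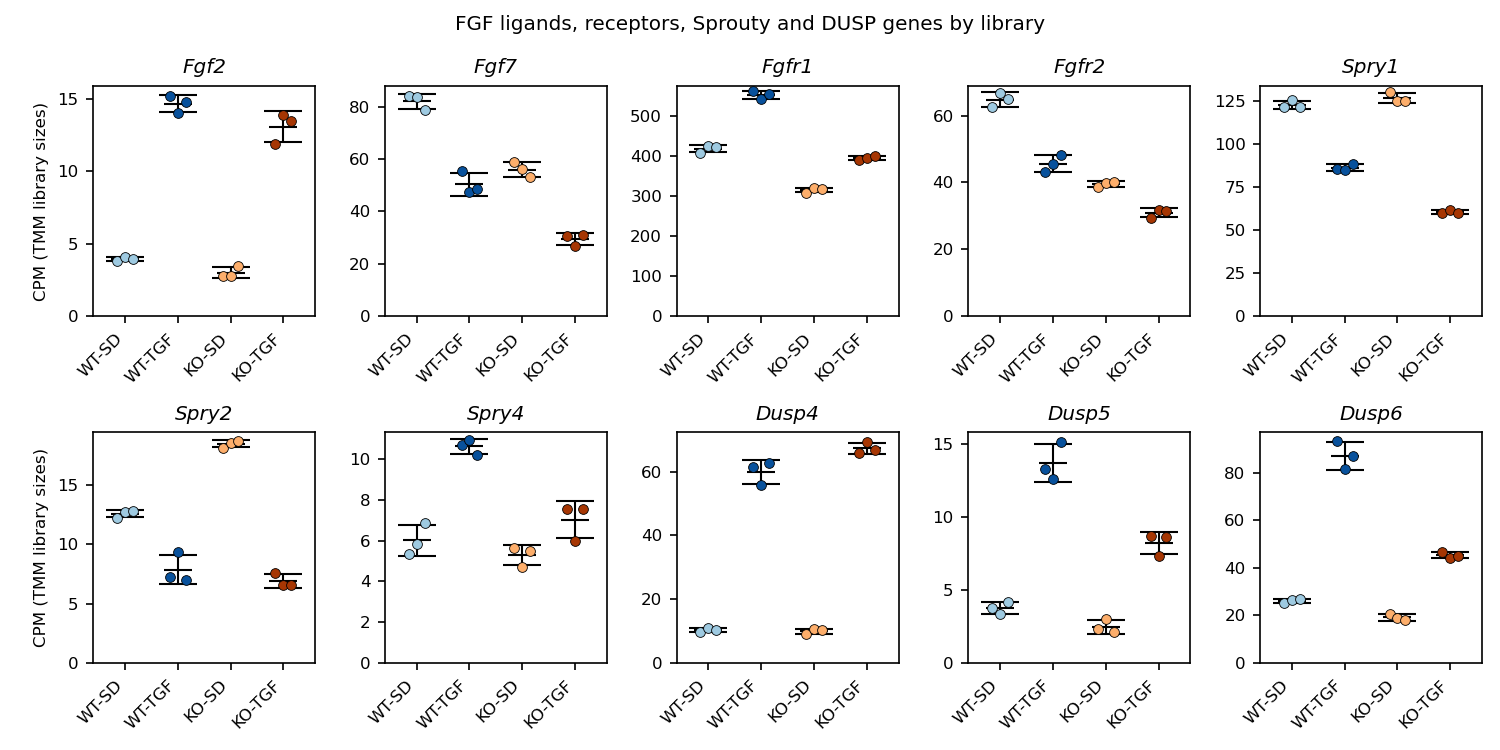
Level of each of the 10 genes in each library, in CPM on a linear axis from 0, by group. Points are libraries, and bars give the mean and SD of 3 libraries. Dusp4 lies between 55.7 and 69.3 CPM in the 6 TGF-β libraries and at or below 10.97 CPM in the 6 SD libraries, and Spry2 is highest in KO-SD.

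Fgf2 encodes basic fibroblast growth factor, a ligand of several FGF receptors. It lies on chromosome 3 from 37348477 to 37410106 on the plus strand (NCBI gene 14173, GRCm38.p6). The WT-SD libraries had 3.82, 4.12 and 3.96 CPM and the WT-TGF libraries 15.2, 14.0 and 14.8 CPM. The KO-SD libraries had 2.80, 2.75 and 3.44 CPM and the KO-TGF libraries 11.9, 13.9 and 13.5 CPM. Every TGF-β library was above every SD library, and every KO library was below every WT library of the same condition, in TGF-β by a narrow margin. Fgf2 rose 3.69-fold in WT (log2 fold change 1.88, standard error 0.0971, adjusted p = 4.02e-17, edgeR) and 4.35-fold in KO (log2 fold change 2.12, standard error 0.108, adjusted p = 2.55e-17, edgeR). In SD it was 1.32-fold lower in KO (adjusted p = 0.0122, edgeR), and in TGF-β the log2 difference was -0.16 (standard error 0.0794) and was not called (adjusted p = 0.0802, edgeR). Without KO-SD replicate 2 the difference in SD was -0.35 on the log2 scale and was not called. Fgf2 passed the RPKM limit only in the 6 TGF-β libraries, its highest SD value being 0.666 RPKM over all annotated exons. A gene that enters through the group where it is high had to differ, and its rise was also called in a fit with no limit. In bulk RNA, fewer cells with a transcript and less of it per cell cannot be told apart, here and for every gene below. Nudt6, on the opposite strand, shares exon sequence with Fgf2. The authors' counting used the strand, and the mean of Nudt6 was 1.97 CPM before and 1.27 CPM after TGF-β in WT.

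Fgf7, or keratinocyte growth factor, is made by mesenchymal cells and acts on the epithelial isoform of Fgfr2. It lies on chromosome 2 from 126034658 to 126091185 on the plus strand (NCBI gene 14178). It had 83.9, 83.5 and 78.7 CPM in WT-SD and 55.4, 47.3 and 48.4 CPM in WT-TGF. The KO libraries had 58.7, 56.0 and 53.3 CPM in SD and 30.7, 26.8 and 31.1 CPM in TGF-β. The WT-SD libraries were the highest and the KO-TGF libraries the lowest, with no overlap between SD and TGF-β within a genotype or between genotypes within a condition. Fgf7 was 1.63-fold lower with TGF-β in WT and 1.90-fold lower in KO (adjusted p = 9.68e-14 and 5.60e-15, edgeR). Against WT it was 1.47-fold lower in KO-SD and 1.70-fold lower in KO-TGF (adjusted p = 4.25e-11 and 1.82e-12, edgeR). The log2 response in KO was lower by 0.22 than that in WT, with log2 responses of -0.71 in WT and -0.92 in KO (standard error of the difference 0.0775, adjusted p = 0.0367, edgeR's interaction test). This difference was not called by DESeq2 (-0.19) or without any 1 of 7 of the 12 libraries, and was -0.12 without KO-TGF replicate 2 and -0.15 without WT-TGF replicate 1.

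The ligands shifted against each other. Fgf7 had 46.3 ± 2.50 times the RPKM of Fgf2 in WT-SD and 7.66 ± 0.443 times in WT-TGF (SD, n = 3). In KO the ratio of RPKM was 42.3 ± 6.70 in SD and 5.08 ± 0.735 in TGF-β. The ratios in SD and TGF-β did not overlap in either genotype.

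Fgfr1 encodes the FGF receptor typical of mesenchymal cells, a high-affinity receptor of FGF2. It lies on chromosome 8 from 25518759 to 25575718 on the plus strand (NCBI gene 14182). Its libraries had 407, 423 and 421 CPM in WT-SD and 560.4, 542 and 554 CPM in WT-TGF. KO-SD had 309, 319 and 316 CPM and KO-TGF 391, 394 and 399 CPM. No 2 groups overlapped, and even the KO-TGF libraries were below the WT-SD libraries. Fgfr1 rose 1.32-fold in WT and 1.25-fold in KO with TGF-β (adjusted p = 1.60e-15 and 4.06e-13, edgeR). It was 1.33-fold lower in KO-SD and 1.40-fold lower in KO-TGF than in WT (adjusted p = 4.41e-15 and 4.96e-17, edgeR). The responses differed by -0.08 on the log2 scale (standard error 0.0345), which was not called (adjusted p = 0.110, edgeR's interaction test). It was called with scaling by library size alone (-0.12) and without KO-SD replicate 1 (-0.090). An annotated antisense gene, Gm16159, had at most 3 counts in any library.

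Fgfr2, the receptor with the isoform that binds FGF7, lies on chromosome 7 from 130162451 to 130266808 on the minus strand (NCBI gene 14183). Gene counts do not separate its isoforms. It had 62.5, 66.9 and 65.0 CPM in WT-SD and 43.1, 45.5 and 48.4 CPM in WT-TGF. The values in KO were 38.7, 39.9 and 40.1 CPM in SD and 29.5, 31.9 and 31.5 CPM in TGF-β. Opposite to Fgfr1, every TGF-β library was below every SD library of its genotype, and both KO groups were below both WT groups. The fall was 1.42-fold in WT and 1.28-fold in KO (adjusted p = 6.07e-12 and 2.52e-07, edgeR). Between the genotypes, Fgfr2 was 1.64-fold lower in KO-SD and 1.47-fold lower in KO-TGF (adjusted p = 6.32e-15 and 3.27e-11, edgeR). The responses of the genotypes were 0.15 apart on the log2 scale (standard error 0.0661), which was not called (adjusted p = 0.0912, edgeR's interaction test), but was called without KO-TGF replicate 1 (0.23) or WT-TGF replicate 3 (0.20).

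Fgfr1 had 6.16 ± 0.0919 times the RPKM of Fgfr2 in WT-SD and 11.6 ± 0.758 times in WT-TGF (SD, n = 3). In KO the ratio was 7.60 ± 0.0531 in SD and 12.2 ± 0.441 in TGF-β. The KO-SD ratios were all above the WT-SD ratios, and the ratios of the TGF-β groups overlapped.

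Spry1, an inhibitor of receptor tyrosine kinase signaling with known roles in kidney branching, lies on chromosome 3 from 37639947 to 37644599 on the plus strand (NCBI gene 24063), on the same chromosome as Fgf2. It had 122, 126 and 121 CPM in WT-SD and 85.7, 84.9 and 88.6 CPM in WT-TGF. The KO libraries had 130.2, 125 and 125 CPM in SD and 60.2, 61.7 and 59.9 CPM in TGF-β. The SD groups of the genotypes overlapped, while the KO-TGF libraries lay well below the WT-TGF libraries. Spry1 was 1.42-fold lower with TGF-β in WT and 2.09-fold lower in KO (adjusted p = 8.98e-15 and 2.43e-22, edgeR). In SD the genotypes differed by 0.04 on the log2 scale (standard error 0.0314, adjusted p = 0.239, edgeR), a value that was -0.032 with scaling by library size alone. In TGF-β Spry1 was 1.43-fold lower in KO (adjusted p = 1.92e-13, edgeR). The log2 response was -0.51 in WT and -1.06 in KO, and the difference of -0.56 was called (standard error 0.0477, adjusted p = 1.27e-10, edgeR's interaction test).

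Spry2, a second Sprouty inhibitor that binds GRB2 and the ubiquitin ligase CBL, lies on chromosome 14 from 105891947 to 105896819 on the minus strand (NCBI gene 24064). It had 12.2, 12.7 and 12.8 CPM in WT-SD and 7.28, 9.32 and 7.01 CPM in WT-TGF. KO-SD had 18.1, 18.6 and 18.8 CPM and KO-TGF 7.55, 6.58 and 6.57 CPM. KO-SD was the highest group, and the TGF-β groups overlapped. Spry2 was the only one of the 10 genes that was called higher in KO-SD than in WT-SD, by 1.47-fold (log2 fold change 0.55, standard error 0.0763, adjusted p = 2.76e-07, edgeR). It was 1.59-fold lower with TGF-β in WT and 2.68-fold lower in KO (adjusted p = 9.48e-08 and 4.76e-15, edgeR). In TGF-β the genotypes differed by -0.20 on the log2 scale (standard error 0.105, adjusted p = 0.117, edgeR), which was called with scaling by library size alone (-0.32) and without WT-TGF replicate 3 (-0.27). The log2 response was -0.67 in WT and -1.42 in KO, a difference of -0.75 (standard error 0.130, adjusted p = 4.18e-05, edgeR's interaction test).

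Spry4, a Sprouty gene known as a transcriptional target of ERK (NCBI gene 24066), went the other way. It had 5.37, 5.81 and 6.87 CPM in WT-SD and 10.7, 10.97 and 10.2 CPM in WT-TGF. The values in KO were 5.65, 4.73 and 5.50 CPM in SD and 7.55, 5.99 and 7.57 CPM in TGF-β. The SD groups overlapped, and the WT-TGF libraries stood above all others. Spry4 rose 1.77-fold in WT and 1.33-fold in KO (adjusted p = 3.07e-08 and 0.00299, edgeR), and with scaling by library size alone the rise in KO was 0.20 on the log2 scale and not called. In SD the genotypes differed by -0.18 (standard error 0.119, adjusted p = 0.201, edgeR), and in TGF-β Spry4 was 1.51-fold lower in KO (adjusted p = 1.43e-05, edgeR). The responses were -0.41 apart on the log2 scale (standard error 0.159), just short of the limit for a call (adjusted p = 0.0554, edgeR's interaction test). It was called with no filter (-0.43), with scaling by library size alone (-0.46), with the replicate number as a block (-0.42) and without WT-SD replicate 3 (-0.52) or KO-SD replicate 2 (-0.49).

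Spry1 remained the most abundant Sprouty transcript per length. It had 8.18 ± 0.207 times the RPKM of Spry2 in WT-SD and 9.36 ± 1.53 times in WT-TGF (SD, n = 3). In KO the ratio was 5.74 ± 0.236 in SD and 7.39 ± 0.627 in TGF-β. The KO-SD ratios lay below those of every other group.

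Dusp4 encodes a nuclear phosphatase of ERK and other MAP kinases. It lies on chromosome 8 from 34807610 to 34819894 on the plus strand (NCBI gene 319520). It had 9.64, 10.97 and 10.1 CPM in WT-SD and 61.6, 55.7 and 62.6 CPM in WT-TGF. The KO libraries had 8.91, 10.5 and 10.1 CPM in SD and 65.9, 69.3 and 66.7 CPM in TGF-β. The SD groups overlapped, and the KO-TGF libraries were all above the WT-TGF libraries. Dusp4 had the largest change of the 10 genes, 5.83-fold in WT (log2 fold change 2.54, standard error 0.0608, adjusted p = 1.01e-25, edgeR) and 6.84-fold in KO (log2 fold change 2.77, standard error 0.0616, adjusted p = 1.30e-26, edgeR). In the list of tested genes ordered by log2 fold change, 99.2% lay below it in WT and 99.3% in KO. In SD the genotypes differed by -0.06 on the log2 scale (standard error 0.0848, adjusted p = 0.557, edgeR). In TGF-β Dusp4 was 1.12-fold higher in KO (log2 fold change 0.17, adjusted p = 0.00237, edgeR), which became 0.046 and was not called with scaling by library size alone. The response in KO exceeded that in WT by 0.23 on the log2 scale (standard error 0.0962), which was not called (adjusted p = 0.0818, edgeR's interaction test), but was called without KO-TGF replicate 1 (0.28).

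Dusp5 encodes a nuclear phosphatase with a preference for ERK. It lies on chromosome 19 from 53529145 to 53541809 on the plus strand (NCBI gene 240672), just after the CArG boxes shown above. It had 3.77, 3.34 and 4.19 CPM in WT-SD and 13.3, 12.6 and 15.2 CPM in WT-TGF. KO-SD had 2.30, 3.04 and 2.11 CPM and KO-TGF 8.73, 7.33 and 8.62 CPM. No 2 groups overlapped. Dusp5 rose 3.63-fold in WT and 3.32-fold in KO (adjusted p = 2.51e-15 and 2.15e-12, edgeR). It was 1.52-fold lower in KO-SD and 1.66-fold lower in KO-TGF than in WT (adjusted p = 0.00200 and 2.55e-07, edgeR). The log2 responses, 1.86 in WT and 1.73 in KO, differed by -0.13 (standard error 0.193, adjusted p = 0.691, edgeR's interaction test), and by 0.037 without KO-SD replicate 2. Dusp5 had RPKM above 1 over all annotated exons in 10 of the 12 libraries.

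Dusp6 encodes the cytoplasmic ERK phosphatase that is a standard reporter of FGF signaling. It lies on chromosome 10 from 99263231 to 99267489 on the plus strand (NCBI gene 67603). It had 25.1, 26.6 and 26.8 CPM in WT-SD and 93.3, 81.5 and 87.1 CPM in WT-TGF. The values in KO were 20.7, 18.7 and 18.0 CPM in SD and 46.6, 44.3 and 44.9 CPM in TGF-β. No 2 groups overlapped, and the KO-TGF libraries lay between the WT groups, nearer to WT-SD. Dusp6 rose 3.34-fold in WT (log2 fold change 1.74, standard error 0.0496, adjusted p = 9.74e-24, edgeR) and 2.37-fold in KO (log2 fold change 1.24, standard error 0.0589, adjusted p = 3.77e-18, edgeR). It was 1.37-fold lower in KO-SD and 1.93-fold lower in KO-TGF than in WT (adjusted p = 3.55e-07 and 3.23e-17, edgeR). The response in KO was smaller by a log2 difference of -0.50 (standard error 0.0791, adjusted p = 1.27e-05, edgeR's interaction test).

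Among the phosphatases Dusp6 and Dusp4 changed order. Dusp6 had 2.50 ± 0.113 times the RPKM of Dusp4 in WT-SD and 1.43 ± 0.0611 times in WT-TGF (SD, n = 3). In KO the ratio was 1.92 ± 0.305 in SD and 0.660 ± 0.0334 in TGF-β. Dusp6 was thus the lower of the pair per length only in KO-TGF.

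**Figure D2:**
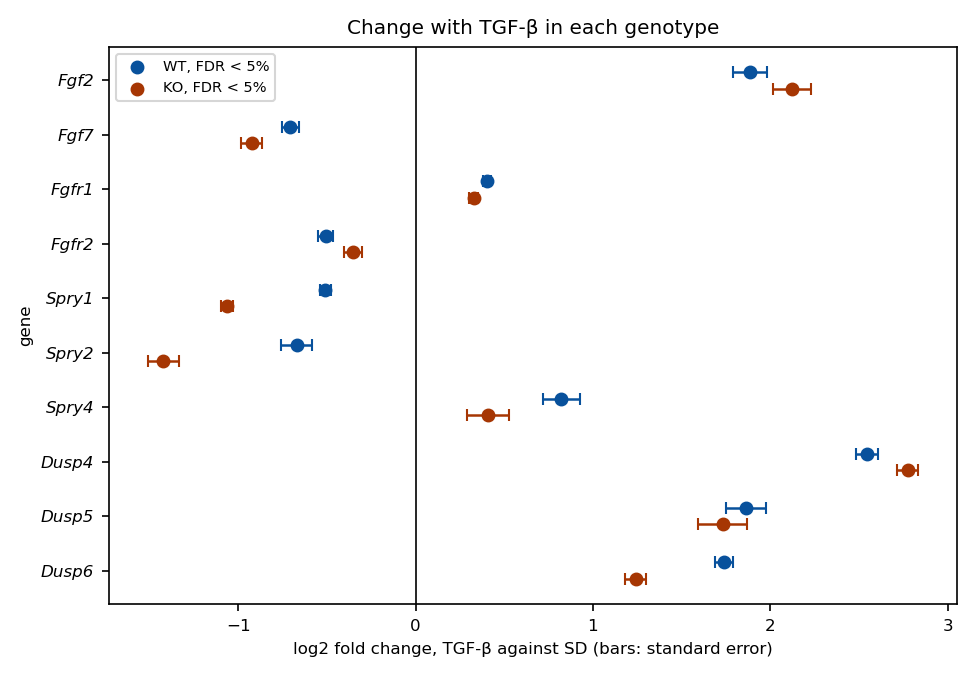
Log2 fold change of each gene with TGF-β against SD, in WT (blue) and KO (orange), with bars for the standard error. All 20 points were called at an FDR below 5%. Spry1 and Spry2 lie further left in KO than in WT, and Dusp6 lies further left in KO, at 1.24 against 1.74.

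Between the genotypes most of the 10 genes were lower in KO. In SD, 6 were lower (Fgf2, Fgf7, Fgfr1, Fgfr2, Dusp5 and Dusp6) and Spry2 was higher, where 25.2% of all genes tested were lower and 30.9% higher. In TGF-β, 7 were lower (Fgf7, Fgfr1, Fgfr2, Spry1, Spry4, Dusp5 and Dusp6) and Dusp4 was higher, against 27.8% lower and 27.3% higher of all genes tested. With scaling by library size alone, Dusp4 was not called and Fgf2 and Spry2 were called lower as well. Fgf7, both receptors, Dusp5 and Dusp6 were lower in KO in both conditions, 5 of the 10 genes, where 18.4% of all genes tested were lower in both. As the 10 genes were chosen with earlier results known, these shares too are a description. Called differences ranged from -0.40 (Fgf2) to -0.71 (Fgfr2) among the lower genes in SD and from -0.48 (Fgfr1) to -0.95 (Dusp6) in TGF-β on the log2 scale. The libraries of the genotypes did not overlap for 7 genes in SD and for 9 in TGF-β, where 59.2% and 61.5% of all genes tested did not overlap.

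**Figure D3:**
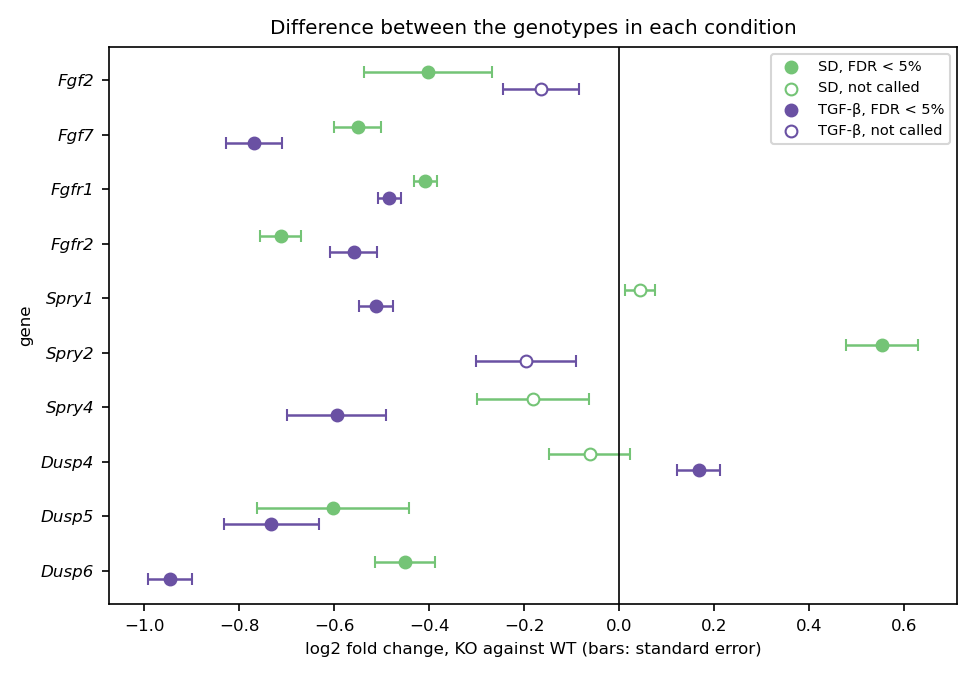
Log2 fold change of KO against WT for each gene, in SD (green) and in TGF-β (purple), with bars for the standard error. Filled points were called at an FDR below 5% and open points were not. Both receptors, Fgf7, Dusp5 and Dusp6 are filled and left of 0 in both conditions, Spry1 only in TGF-β, and Spry2 is right of 0 in SD at 0.55.

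The TGF-β response itself was called as different between the genotypes for 4 of the 10 genes, Fgf7, Spry1, Spry2 and Dusp6, each with the more negative response in KO. The call for Fgf7 was lost by DESeq2 and without some single libraries. With 1 library left out, the number called with a more negative response in KO was 3 or 4. Of all genes tested, 16.6% had a more negative response in KO and 8.67% a more positive one. For Spry1, Spry2 and Fgf7 a fall was deeper in KO, and for Dusp6 a rise was smaller. The log2 differences were between -0.22 (Fgf7) and -0.75 (Spry2). The other 6 ranged from -0.41 (Spry4) to 0.24 (Fgf2) and were not called.

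Marker genes were checked beside these differences. Of 10 mesangial markers 9 were detected, and Thy1 had at most 3 counts in every library. The 10 summed to between 4449 and 4622 CPM in WT-SD, 8748 and 9002 in WT-TGF, 7371 and 7397 in KO-SD and 14660 and 14837 in KO-TGF. The actin Acta2 had means of 1567 CPM in WT-SD and 3249 in KO-SD, Vim 1927 and 2405 and Tagln 714 and 1319. Cspg4 had 39.7 and 95.5, Gata3 4.03 and 7.21, Pdgfrb 288 and 306 and Itga8 2.89 and 3.05 CPM. Des (7.67 and 0.529 CPM) and Pdgfra (3.54 and 1.97 CPM) were lower in KO-SD. In TGF-β, Des, Pdgfra, Itga8 and Pdgfrb had lower means in KO, at 0.247, 0.212, 0.638 and 358 CPM. In WT-TGF these had 5.62, 0.646, 1.61 and 384 CPM. Acta2, Vim, Tagln, Cspg4 and Gata3 had higher means in KO there too. The 12 macrophage markers summed to between 38.9 and 42.5 CPM in WT-SD, 21.1 and 25.2 in WT-TGF, 8.36 and 9.91 in KO-SD and 2.62 and 2.89 in KO-TGF, and Adgre1 was at 0 in every KO library. The 6 podocyte markers summed to between 459 and 467 CPM in WT-SD, 455 and 474 in WT-TGF, 218 and 227 in KO-SD and 205 and 220 in KO-TGF, with Nphs1 and Ptpro at no more than 3 counts in each group and Wt1 at a mean of 98.9 CPM in the WT-SD and 25.3 CPM in the KO-SD libraries. The 7 endothelial markers summed to between 32.9 and 33.3 CPM in WT-SD, 20.1 and 22.5 in WT-TGF, 17.2 and 18.4 in KO-SD and 9.25 and 10.9 in KO-TGF. Nearly all of this sum was Ehd3, with a mean of 32.6 CPM in the WT-SD libraries that compares with 17.1 in the KO-SD libraries, while Pecam1, Kdr and Tek stayed below 0.5 CPM in every library and Cdh5, Emcn and Tie1 at no more than 3 counts. The 9 tubular markers summed to between 75.7 and 81.4 CPM in WT-SD and 22.6 and 25.8 in WT-TGF. In KO they summed to between 24.3 and 25.7 CPM in SD and 12.5 and 13.4 in TGF-β. Slc34a1, Umod, Aqp2 and Epcam had no more than 3 counts. Most of the WT-SD sum was Lrp2 (mean 42.6 CPM, and 10.8 in KO-SD) and Cdh16 (27.5 and 2.71 CPM). Aqp1 (4.10 and 6.80 CPM) and Slc12a1 (0.358 and 1.25 CPM) had higher means in KO-SD, as had Cubn, whose libraries overlapped. With TGF-β the means of Cubn and Slc12a1 rose in both genotypes, and those of Lrp2, Cdh16 and Aqp1 fell. The sums of all 5 lists differed between WT-SD and KO-SD without overlap, those of all but the podocyte list also differed between SD and TGF-β in both genotypes, and their part in the differences of the 10 genes was not tested.

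Levels were compared between genes per exon length, using the exons that GENCODE vM21 shares with RefSeq. In all 4 groups Fgfr1 was the highest of the 10, from 62.6 RPKM in KO-SD to 109.9 RPKM in WT-TGF. In WT-SD it was followed by Spry1 at 49.3, Fgf7 at 30.7, Fgfr2 at 13.5, Dusp6 at 9.35, Spry2 at 6.03, Dusp4 at 3.74, Dusp5 at 1.52, Spry4 at 1.27 and Fgf2 at 0.664 RPKM. Dusp5 and Spry4 overlapped in WT-SD and again in KO-SD. In WT-TGF the order was Fgfr1, Spry1 (34.7), Dusp6 (31.2), Dusp4 (21.9), Fgf7 (18.8), Fgfr2 (9.51), Dusp5 (5.54), Spry2 (3.77), Fgf2 (2.46) and Spry4 (2.23 RPKM), with Dusp4 and Fgf7 overlapping. Dusp4 thus went from the seventh to the fourth place. In KO-SD Spry2, at 8.86 RPKM, stood above Fgfr2 at 8.24 and Dusp6 at 6.84. In KO-TGF Dusp4 (24.6) and Spry1 (24.3) overlapped below Fgfr1 (78.5), Dusp6 followed at 16.2 and Fgf7 at 11.05, and Dusp5 (3.33) and Spry2 (3.31 RPKM) overlapped.

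**Figure D4:**
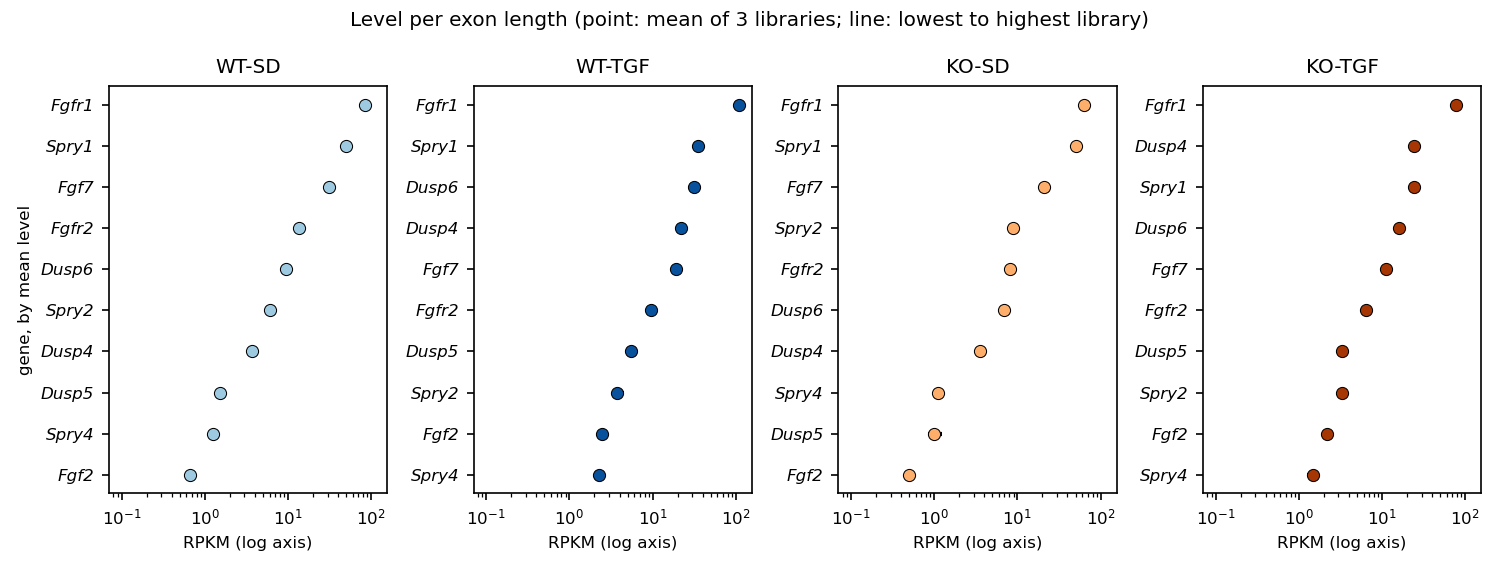
Mean RPKM of the 10 genes in each group on a log axis, ordered from the highest to the lowest within the group. Points are means of 3 libraries, and lines, mostly hidden by the points, run from the lowest to the highest library. Fgfr1 leads in all 4 groups, Dusp4 moves up with TGF-β, and Fgf2 is last in SD while Spry4 is last in TGF-β.

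The genes with the most similar pattern were found by the root mean square difference of log2 CPM over the 12 libraries, each gene centred on its own mean. The smallest difference was that of Pgm5 from Spry1, at 0.0437, with means of 276 CPM in WT-SD, 189.9 in WT-TGF, 278 in KO-SD and 132 in KO-TGF for Pgm5. For Fgfr1 the nearest gene was Dlc1 (0.0577), for Fgfr2 Tnip1 (0.0715), for Fgf7 Pik3ip1 (0.0944), for Spry2 Dclk1 (0.108), for Fgf2 Itgb3 (0.110), for Spry4 Hoxa4 (0.114), for Dusp6 Lfng (0.134), for Dusp4 Hbegf (0.143) and for Dusp5 Nox4 (0.179). The difference is not scaled to how much a gene varies. The root mean square of the centred gene itself ran from 0.290 (Fgfr1) to 1.33 (Dusp4), so these values do not rank the matches of different genes. Hbegf, an EGF receptor ligand, had means of 67.3 CPM in WT-SD, 433 in WT-TGF, 58.4 in KO-SD and 468 in KO-TGF. These are nearest neighbours among 11528 genes and share the libraries, so some similarity is given by the groups themselves.

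The wider pathway was read from 6 lists. The 10 genes are among them, as 2 tested ligands, 2 receptors, 3 inhibitors and 3 phosphatases, and they enter the counts and medians. Over all genes tested, 36.0% rose and 36.4% fell with TGF-β in WT and 34.9% rose and 39.1% fell in KO. Of 22 genes of the FGF family 5 were tested and 10 never had more than 3 counts. Beside Fgf2 and Fgf7 the tested ligands included Fgf18, a growth factor best known in skeletal and lung development. Fgf18 had means of 19.2 CPM in WT-SD, 20.5 in WT-TGF, 10.5 in KO-SD and 5.85 in KO-TGF. With TGF-β its log2 fold change was 0.09 in WT (adjusted p = 0.211, edgeR) and -0.84 in KO (adjusted p = 2.71e-09, edgeR), a difference in response of -0.93 (standard error 0.114, adjusted p = 1.58e-07, edgeR's interaction test). The log2 value in WT was -0.07 with scaling by library size alone. It was lower in KO by a log2 fold change of -0.87 in SD and -1.80 in TGF-β. Fgf21, named here after its values were seen because it lies far from the other genes in the plot of the lists, had at most 2 counts in a WT-SD library and 62 to 79 in WT-TGF. In KO it had 3 to 7 counts in SD and 134 to 154 in TGF-β.

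Of 16 receptor and coreceptor genes 11 were tested. With TGF-β 7 rose and 3 fell in WT, and 6 rose and 3 fell in KO, with list medians of 0.46 and 0.33 on the log2 scale beside medians of 0.00 and -0.03 over all genes tested. Flrt2 and Flrt3 encode membrane proteins that bind FGF receptors. Flrt2 had means of 326 CPM in WT-SD, 994 in WT-TGF, 462 in KO-SD and 918 in KO-TGF, a log2 rise of 1.61 in WT and 0.99 in KO, and the difference of -0.62 was called (adjusted p = 2.76e-12, edgeR's interaction test). In WT, Flrt3 rose with TGF-β by 0.48 on the log2 scale, 9.18 CPM becoming 12.8 (adjusted p = 1.86e-05, edgeR). In KO its means were 5.77 CPM in SD and 4.87 in TGF-β, a log2 fold change of -0.24 that was not called (adjusted p = 0.0758, edgeR) except with scaling by library size alone (-0.45), when KO-SD replicate 1 was left out (-0.30) or when KO-TGF replicate 2 was (-0.31), and the responses differed by -0.72 (adjusted p = 0.000456, edgeR's interaction test).

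All 21 genes of the adaptors and the RAS-ERK cascade were tested. With TGF-β 8 rose and 9 fell in WT and 8 rose and 11 fell in KO, with medians of -0.04 and -0.12, near the shares over all genes tested (36.0% and 36.4% in WT, 34.9% and 39.1% in KO). With scaling by library size alone 6 rose and 13 fell in WT, and 5 rose and 14 fell in KO. Rps6ka1, an ERK-activated kinase, fell in WT (17.7 to 10.4 CPM) and fell further in KO (17.4 to 6.90 CPM), a difference of -0.56 between the log2 responses (adjusted p = 0.000200, edgeR's interaction test). Of 13 tested genes for Sprouty, Spred and other inhibitors, 9 rose and 2 fell in WT, and 7 rose and 4 fell in KO. The 2 that fell in WT were Spry1 and Spry2, and the list medians were 0.32 and 0.24. With scaling by library size alone 9 rose and 4 fell in WT, and 5 rose and 6 fell in KO. For 6 of the 13 the response was more negative in KO by edgeR's interaction test, beside 16.6% of all genes tested.

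Of 10 MAP kinase phosphatase genes 8 were tested, and 3 of the 8 are among the 10 genes of this report. In WT 6 rose with TGF-β, those 3 included, beside 36.0% of all genes tested (5 rose and 1 fell with scaling by library size alone). The list median in WT was 0.69. In KO 6 rose and 2 fell, with a median of 0.85, beside 34.9% and 39.1% of all genes tested. The number that fell in KO was 0 by DESeq2 and when KO-TGF replicate 1 was left out, and 1 when KO-TGF replicate 2 or KO-SD replicate 2 or 3 was. The 3 with the largest rises in WT were Dusp4, Dusp5 and Dusp6. Dusp10, a phosphatase with a preference for JNK and p38, rose in WT (8.83 to 11.5 CPM) and in KO (5.56 to 9.49 CPM), and its response was larger in KO by 0.39 on the log2 scale (standard error 0.133, adjusted p = 0.0275, edgeR's interaction test), a call that was lost by DESeq2 (0.42), with scaling by library size alone (0.35) and without WT-SD replicate 1 (0.38) or 2 (0.32), WT-TGF replicate 3 (0.35) or KO-SD replicate 3 (0.38).

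Of 18 transcripts known to depend on ERK 17 were tested. With TGF-β 13 rose and 2 fell in WT (list median 1.25), beside 36.0% and 36.4% of all genes tested. In KO 14 rose and 3 fell (median 0.81), beside 34.9% and 39.1% of all genes tested. In TGF-β 9 were lower in KO than in WT and 5 higher, beside 27.8% and 27.3% of all genes tested, and with scaling by library size alone 10 were lower and 2 higher. The response was more negative in KO for 6 and more positive for 2, beside 16.6% and 8.67% of all genes. Ccnd1, or cyclin D1, fell in WT (111 to 73.4 CPM) and fell further in KO (95.5 to 36.4 CPM), a difference of -0.80 between the log2 responses (standard error 0.0616, adjusted p = 1.26e-11, edgeR's interaction test). Epha4, an ephrin receptor, fell in WT (375 to 169.8 CPM) and in KO (267 to 178 CPM), and its fall was smaller in KO by 0.56 on the log2 scale (standard error 0.0375, adjusted p = 4.36e-13, edgeR's interaction test).

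**Figure D5:**
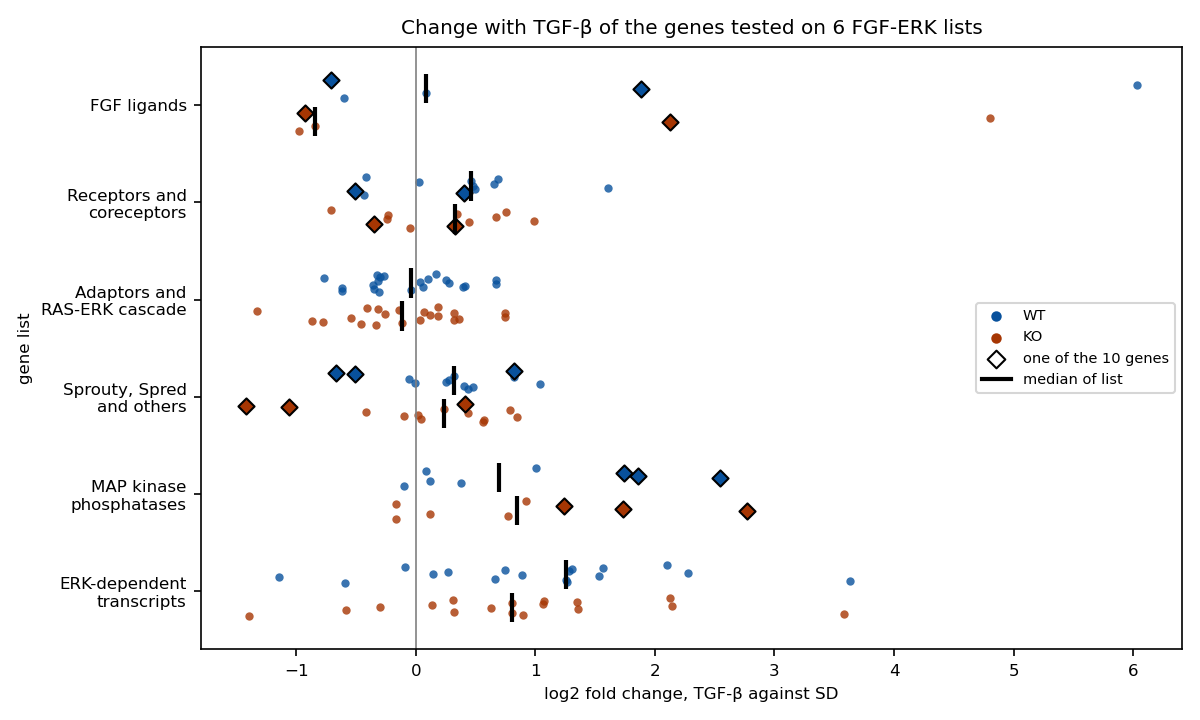
Log2 fold change with TGF-β of every tested gene on the 6 lists, in WT (blue, upper row of each list) and KO (orange, lower row). Diamonds are the 10 genes, other points are further genes of the list, and black bars are list medians. The medians of the ERK-dependent transcripts, 1.25 in WT and 0.81 in KO, lie furthest right in WT, the cascade lies around 0, and the points past 4 are Fgf21.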

How the data were processed

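RNA-seq libraries of WT and lncMGC-KO5 MMC (12 libraries, 3 in each of 4 groups, grouped by the sample titles) were analysed. Per the submitters' processing notes and the study's methods, the authors used TopHat to place single-end reads on mm10 and HTSeq to count them per RefSeq gene, on the gene's strand leaving out poor alignments. What the authors deposited are raw counts, 1 whole number per gene and library, neither normalized nor filtered. Rows that name no gene held 10.3% to 15.4% (outside exons), 11.2% to 11.7% (several alignments) and 0.225% to 0.274% (overlapping genes) of the reads and were left out. The libraries held 19898050 to 22827706 counts on genes, and 3 counts were taken as the floor of detection. Between replicate libraries, differences exceeded sampling noise (chi-square per degree of freedom 1.35 to 5.41 over 12 pairs), so none was counted as a copy.

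As in the study's methods, genes with RPKM above 1 in at least 1 library entered edgeR with TMM normalization. Chosen here were edgeR 4.0.16 (R 4.3.3; the study names an earlier version), the quasi-likelihood test (glmQLFit and glmQLFTest, 1 mean per group; the study does not say which of edgeR's tests it ran) and exon lengths from GENCODE vM21 for RPKM, where the study counted RefSeq genes. There were 5 contrasts: the TGF-β response of either genotype, the genotype difference in either condition, and the interaction (response in KO minus response in WT, log2). The steps were tested on simulated data. Named beside the 10 genes were listed genes called in the interaction with an absolute difference of at least 0.5 and a mean of at least 5 CPM, otherwise the listed gene with the largest called change with TGF-β in WT and between genotypes in SD, and for each of the 10 genes its nearest gene. The 10 genes, the 6 pathway lists and the 5 marker lists were chosen with earlier results of these data known. One podocyte marker is not reported here. Tried as alternatives were DESeq2 1.42.0, library size alone in place of TMM, a filter of CPM above 1 in 3 or more libraries, no filter, a fit of the compared groups alone, a replicate block, and each library left out. Promoter sequences are from RefSeq (GRCm38.p6).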

Additional observations from a re-analysis of the deposited data

Results flagged for a closer look

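Among the 10 genes, the TGF-β response differed between KO and WT by edgeR's interaction test for Spry2 (log2 response in KO minus WT -0.75), Spry1 (-0.56), Dusp6 (-0.50) and Fgf7 (-0.22). The last of these was not called by DESeq2 or without some single libraries (-0.115 without KO-TGF replicate 2). Among the further pathway genes that the naming rule took, it differed for Fgf18 (-0.93), Ccnd1 (-0.80), Flrt3 (-0.72), Flrt2 (-0.62), Rps6ka1 (-0.56), Epha4 (0.56) and Dusp10 (0.39), the last of these not by DESeq2, with scaling by library size alone or without any 1 of 4 libraries.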

How the results depend on the processing

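Of 889 values of the 10 genes recomputed under an alternative, 862 kept their direction and their side of the threshold, 13 were newly called, 11 lost their call and 3, none of them called, changed sign. Scaling by library size alone moved the median log2 fold change of all genes by -0.16 (TGF-β in WT), -0.20 (TGF-β in KO), -0.08 (KO against WT in SD), -0.12 (in TGF-β) and -0.05 (interaction), and with it Spry4 in KO (TGF-β, 0.20) and Dusp4 between genotypes in TGF-β (0.046) were not called, so that 0 of the 10 genes were higher in KO-TGF by edgeR (also 0 at an unadjusted p under 0.05), while Fgf2 (-0.29) and Spry2 (-0.32) between genotypes in TGF-β and the interactions of Fgfr1 (-0.12) and Spry4 (-0.46) were called. Spry1 between genotypes in SD became -0.032, Fgf18 with TGF-β in WT -0.07 and Epha4 between genotypes in TGF-β -0.05. The interaction of Fgf7 was -0.19 and not called by DESeq2. With no filter the interaction of Spry4 was called (-0.43) and Rps6ka1 between genotypes in SD was 0.000. The cause of these shifts was not tested. Same-numbered libraries varied together weakly or not at all (correlation of deviations -0.015 to 0.065 over 12 pairs). Weak correlations cannot show whether the numbers pair them, and the main fit did not pair them. With the replicate number as a block, the interaction of Spry4 was called (-0.42) and no other call on the 10 genes changed.

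Leaving out 1 library, Fgf2 between genotypes in SD ranged from -0.51 to -0.35 and Dusp4 from -0.11 to 0.005, its sign changing without KO-SD replicate 1. Between genotypes in TGF-β, Spry2 ranged from -0.27 to -0.052. Interactions ranged from -0.26 to -0.12 for Fgf7, -0.091 to -0.030 for Fgfr1, 0.11 to 0.23 for Fgfr2, -0.52 to -0.27 for Spry4, 0.16 to 0.28 for Dusp4 and -0.23 to 0.037 for Dusp5, whose sign changed without KO-SD replicate 2. The number of the 10 genes with a more positive response in KO, 0 by edgeR and by DESeq2 and 2 at an unadjusted p under 0.05, ranged from 0 to 2, being 1 without WT-TGF replicate 3 (Fgfr2) and 2 without KO-TGF replicate 1 (Fgfr2 and Dusp4). A fit of only the groups compared cannot give the interaction. Depth limits Fgf2, Dusp5 and Spry4 most, which had 46 to 151 counts in the SD libraries.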
